A study of Homo sapiens with 6 samples.

Results

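The genes described here code for the vacuolar proton pump (V-ATPase), the lysosomal cathepsins and the lysosome-associated membrane proteins (LAMP) in NSCLC (non-small cell lung cancer) cells with and without knockdown of the long noncoding RNA MALAT1. They were chosen by symbol alone, as the protein-coding genes named ATP6V0, ATP6V1, ATP6AP1, ATP6AP2, CTS plus 1 letter, or LAMP1 to LAMP3, which gave 43 of the 46427 genes in the expression table. Of these, 9 belong to the membrane sector V0, 13 to the cytosolic sector V1, 2 are accessory proteins, 15 are cathepsins and 3 are LAMP genes. The remaining gene, ATP6V1FNB, only lies next to ATP6V1F and is not named as a subunit.

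Total RNA of 3 tumour cell lines, H460, H1299 and A549, was sequenced after siRNA transfection against MALAT1 (si-MALAT1) and in a control of each line. Each line and condition has 1 library, so the 3 lines stand for the replicates and no cell line has a replicate of its own. The labels give the control cells no treatment, and the study's methods describe both untreated and si-Control cells without naming which were sequenced, so an effect of transfection itself cannot be told apart from that of MALAT1 loss. All 3 lines are long established cancer lines, and levels are per total RNA of a culture, so fewer cells of a state and less RNA per cell cannot be told apart. The libraries held 42506818 to 68515992 counted reads, of which 0.217 to 0.446% fell on these 43 genes. Of 5 epithelial markers, 2 were over 1 TPM in every library (KRT8 at 123 to 1778 TPM, a level scaled to gene length and library, and KRT18 at 236 to 2918 TPM). KRT19 was at most 0.256 TPM in H1299, and CDH1 and EPCAM stayed at or below 0.776 TPM in H460 and H1299. Of 5 mesenchymal markers only VIM was over 1 TPM in every library (446 to 2120 TPM). COL1A1, COL1A2, PDGFRB and DCN stayed at or below 2.52 TPM. The lung lineage factor NKX2-1 stayed at or below 0.271 TPM, the surfactant gene SFTPB was listed at 0 and SFTPC stayed at or below 0.291 TPM. NAPSA, the last of the 4 lung markers read, was at 1.14 and 1.79 TPM in A549 and at or below 0.630 TPM elsewhere. MALAT1 (Gene ID 378938) fell in each line, with a log2 change of -2.32 (H460), -2.96 (H1299) or -2.84 (A549), and the adjusted p of edgeR's paired quasi-likelihood test was 0.0381. Where lines are not named, values follow this order of lines.

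The V-ATPase is a rotary motor that acidifies lysosomes and endosomes. Its V1 sector hydrolyses ATP on the cytosolic side, and its V0 sector carries protons through the membrane. The low pH activates cathepsins, the proteases that digest proteins inside lysosomes and that tumour cells can also secrete, while the heavily glycosylated LAMP proteins line the lysosomal membrane. Many of these genes carry the palindrome CACGTG near their start, which the transcription factors TFEB and TFE3 bind, and a pump subunit with several isoform genes takes 1 isoform per position in the complex.

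Changes within a line are given as log2 of the scaled read count plus 1, si-MALAT1 minus control, with a 95% exact interval that covers counting error only. Of the 43 genes, 35 had reads in all 6 libraries, 4 had reads in some libraries and 4 had none. The 4 without a read were ATP6V1G3 (a kidney isoform of subunit G), CTSE, CTSG (proteases of the stomach and of neutrophils) and CTSW (a protease of lymphocytes). A count of 0 allows up to 3 reads in a library.

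As a group, the genes did not move one way. Over the 35 genes the median log2 fold changes were -0.02, 0.06 and 0.08, beside 0.02, 0.02 and 0.01 over the 17834 genes with reads in all 6 libraries. The 11 V1 genes with reads throughout had medians of 0.20, 0.06 and 0.07. The 7 V0 genes had medians of -0.06, 0.03 and -0.16, and the 11 cathepsins had medians of -0.04, 0.03 and -0.31, of which the A549 value lay farthest from that of all genes. With TMM or TPM scaling the medians of these genes and groups kept their signs.

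A change of at least 1.5-fold was the threshold per line. In H460, 3 of the 35 genes were higher by that much (ATP6V1C2, ATP6V1E2 and ATP6V1G1; 9.5% of all genes) and 3 were lower (ATP6V0C, ATP6V0E1 and CTSO; 10.3% of all genes). In H1299, ATP6AP1 and ATP6V0A1 were higher, 2 of 35 beside 11.7% of all genes, and ATP6V0E1 and CTSV were lower, 2 of 35 beside 11.4%. In A549, 3 were higher (ATP6V0E2, ATP6V1C2 and LAMP3; 11.5% of all genes) and 6 were lower (ATP6V0E1, ATP6V1C1, CTSK, CTSL, CTSO and CTSV; 11.4%). The share lower in A549 was 17.1%, and the other shares, 5.71 to 8.57%, lay below those of all genes.

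**Figure D1:**
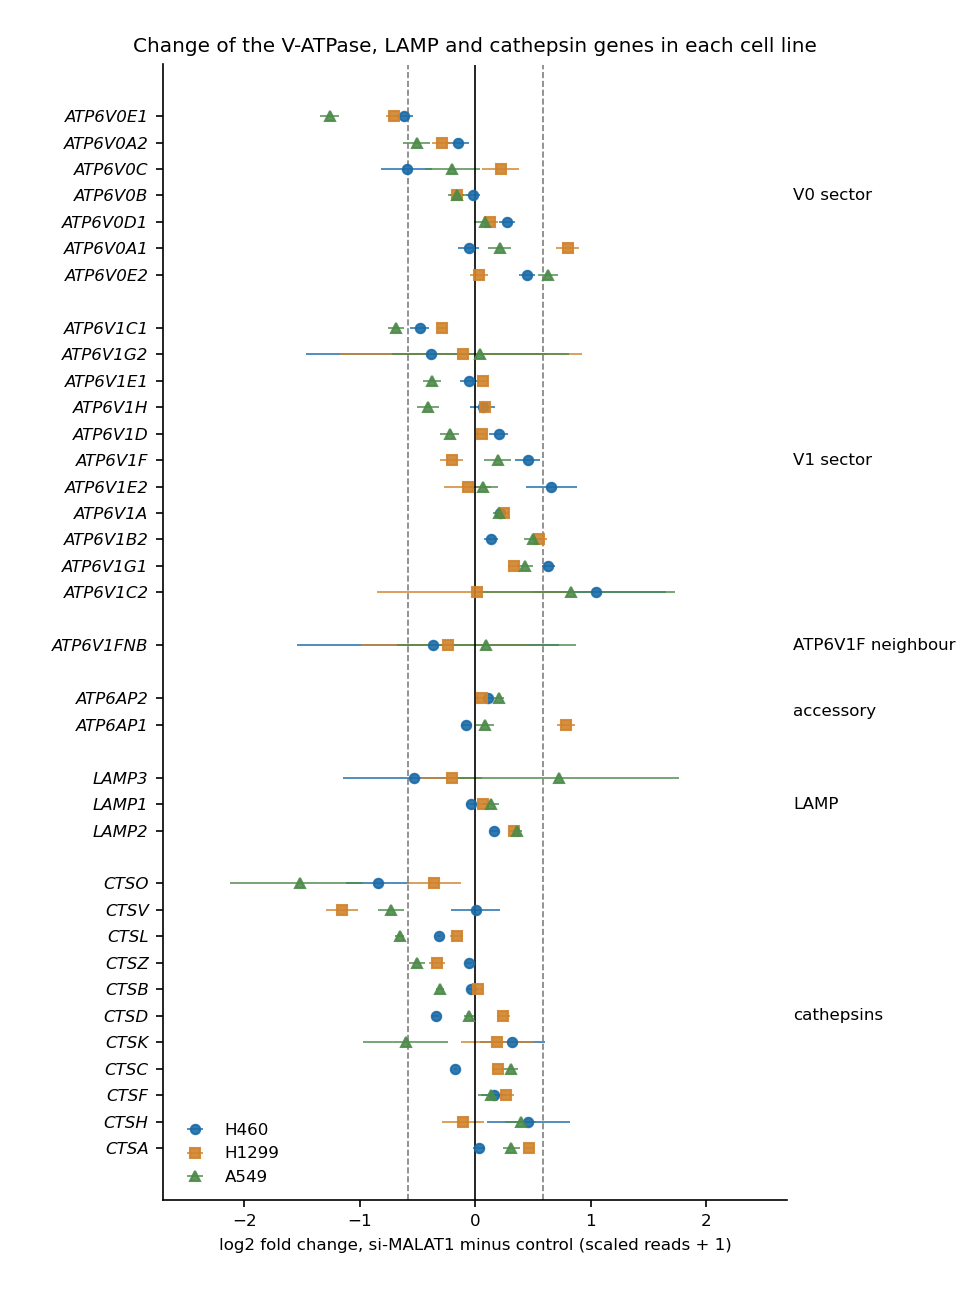
Change of the 35 genes with reads in every library. The x axis is the log2 fold change, si-MALAT1 minus control, of scaled reads plus 1 in each of the 3 cell lines; bars are 95% exact intervals for counting error and dashed lines mark a 1.5-fold change. ATP6V0E1 is the gene with all 3 points left of the lower line, and CTSO, CTSV and LAMP3 spread most between lines.

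Across the 3 lines together, 10 of the 35 genes were higher in each line and 7 were lower in each, beside 21.4% and 18.8% of all genes. Higher in each were ATP6AP2, ATP6V0D1, ATP6V0E2, ATP6V1A, ATP6V1B2, ATP6V1C2, ATP6V1G1, CTSA, CTSF and LAMP2, of which ATP6AP2 and CTSA were lower in H460 on the TPM scale. Lower in each were ATP6V0A2, ATP6V0B, ATP6V0E1, ATP6V1C1, CTSL, CTSO and CTSZ. Past 1.5-fold in all 3 lines, 0 genes were higher (1.19% of all genes) and 1 was lower, ATP6V0E1 (1.28% of all genes).

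The paired test over the 3 lines called none of the 38 genes that passed the count filter. With edgeR's quasi-likelihood test and Benjamini-Hochberg adjustment over 19122 genes, 0 were higher (0% of all genes) and 0 were lower (0.00523% of all genes, a share that is MALAT1 alone). At an unadjusted p below 0.05, 3 were higher (ATP6V0E2, ATP6V1B2 and ATP6V1G1; 7.38% of all genes) and 6 were lower (ATP6V0A2, ATP6V0E1, ATP6V1C1, CTSL, CTSO and CTSV; 7.59% of all genes). DESeq2's Wald test with the same pairing called 1 gene higher, ATP6V1G1 (2.94% of all genes), and 2 lower, ATP6V0E1 and ATP6V1C1 (3.02% of all genes). These shares are of all 19122 genes, of which DESeq2 gave 13561 an adjusted p, so they would be larger over those alone. ATP6V0A4, ATP6V1B1, ATP6V1C2, ATP6V1FNB, ATP6V1G2 and LAMP3 got no adjusted p from DESeq2. The calls of these 3 genes therefore depend on the tool, with 2 residual degrees of freedom behind the edgeR test.

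ATP6V0E1 (Gene ID 8992; GRCh38 chromosome 5, 172983771 to 173035445, plus strand) codes for subunit e, a small membrane protein of V0. Its control libraries held 3664, 5306 and 3899 reads and its si-MALAT1 libraries 2261, 2968 and 1799. All 3 si-MALAT1 libraries lay below their controls, and per length the level was 44.3, 64.8 and 78.6 TPM in the controls and 26.3, 41.5 and 32.5 TPM after si-MALAT1. On the log2 scale the differences were -0.61 (-0.69 to -0.54), -0.71 (-0.77 to -0.64) and -1.26 (-1.34 to -1.18), with a mean of -0.86 ± 0.35 (SD, n = 3 lines). edgeR's adjusted p was 0.0994, and leaving out H460, H1299 or A549 gave 0.0566, 0.150 or 0.696. DESeq2 gave an adjusted p of 0.000116, and edgeR without the pairing gave 1, the extremes over the alternatives.

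The other gene for subunit e, ATP6V0E2 (Gene ID 155066; chromosome 7, 149872964 to 149880713, plus strand), went the other way in 2 lines. Reads were 2781, 2804 and 1574 in the controls and 3583, 2621 and 2693 after si-MALAT1. Its log2 fold changes were 0.45 (0.38 to 0.52), 0.03 (-0.04 to 0.11) and 0.63 (0.54 to 0.72), and edgeR's adjusted p was 0.323. The H1299 interval included 0. ATP6V0E2 overlaps an antisense gene, ATP6V0E2-AS1, and whether reads were counted by strand is not given in the sources used here.

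The proportions of the e isoforms differed between the conditions in each line. ATP6V0E1 held 71.8% of the summed TPM of the pair in the H460 control, 78.4% in that of H1299 and 82.6% in that of A549, and 54.8%, 68.3% and 52.0% after si-MALAT1. Its share was lower by 17.0, 10.1 and 30.7 percentage points, so the 3 control libraries lay at 71.8% or above and the 3 si-MALAT1 libraries at 68.3% or below. With 1 library per line and condition this shift was not tested.

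**Figure D2:**
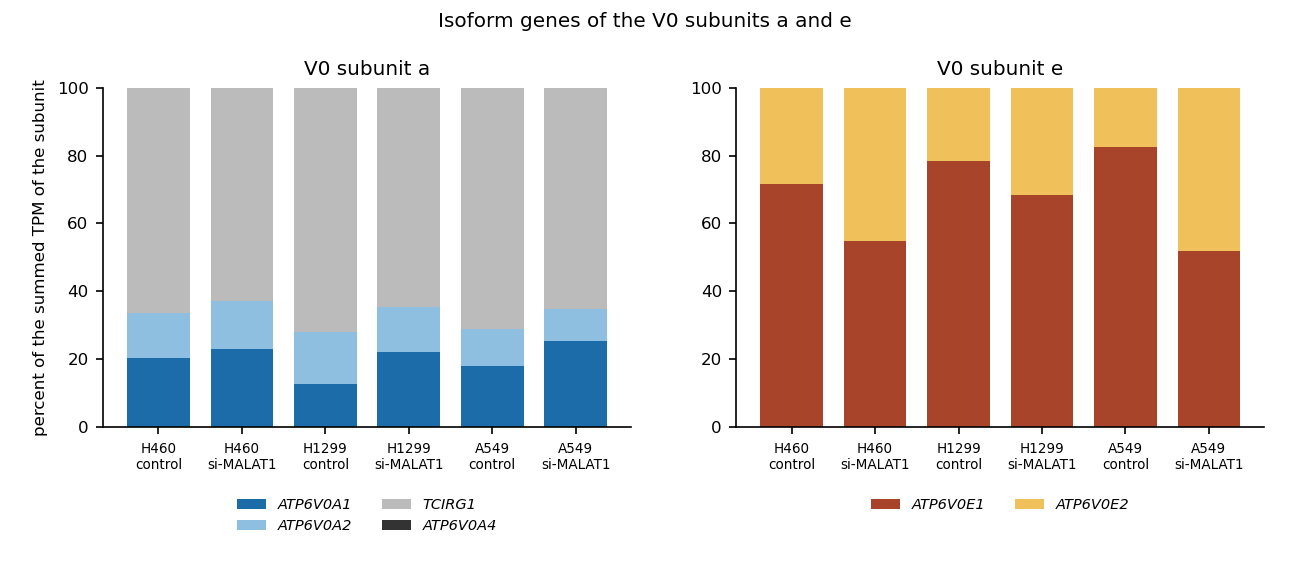
Isoform genes of the V0 subunits a and e. Each bar is 1 library and shows the percent of the summed TPM that each isoform gene held. The ATP6V0E1 part of subunit e is smaller after si-MALAT1 in each line, most in A549 (82.6 to 52.0%). The ATP6V0A1 part of subunit a is larger in each line, also in H460, where its own TPM was lower.

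Subunit a anchors the pump to a given membrane and has 4 isoform genes, of which TCIRG1 (isoform a3) falls outside the symbol rule. TCIRG1 was the main a isoform in every library, with 66.2, 71.9 and 70.9% of the summed TPM in the controls and 62.6, 64.7 and 65.0% after si-MALAT1. TCIRG1 itself had log2 fold changes of -0.19, -0.19 and -0.45, with an edgeR unadjusted p of 0.0386 and an adjusted p of 0.305. ATP6V0A1 held 20.3, 12.5 and 18.1% in the controls and 22.9, 22.3 and 25.5% after si-MALAT1. In H460 its share was larger although its own level went from 7.86 to 6.87 TPM. ATP6V0A2, an isoform of the Golgi and endosomes, held 9.44 to 15.5%.

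ATP6V0A1 (Gene ID 535; chromosome 17, 42458874 to 42522579) stood apart in H1299, where its reads went from 1333 to 2123, a log2 fold change of 0.80 (0.70 to 0.90). In H460 it had 1920 and 1743 reads (log2 fold change -0.06, -0.15 to 0.04) and in A549 1443 and 1850 (0.21, 0.11 to 0.31). The accessory gene ATP6AP1, whose product guides assembly of the pump, had the same order: 0.79 (0.71 to 0.86) in H1299, beside -0.08 in H460 and 0.08 in A549. The other accessory gene, ATP6AP2, the prorenin receptor, was at 50.7 to 108 TPM and had log2 fold changes of 0.11, 0.06 and 0.20.

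Apart from ATP6V0C in H460, which passed 1.5-fold, the genes of the V0 ring and its base had smaller differences. ATP6V0C, the proton-carrying c subunit, differed by -0.59 (-0.81 to -0.37), 0.22 and -0.20 on the log2 scale at 4.18 to 12.2 TPM. ATP6V0B, the related c'' subunit, was at 63.6 to 94.3 TPM with changes of -0.02, -0.16 and -0.16. ATP6V0D1, the d subunit between ring and stalk, had 0.28, 0.13 and 0.08, and it held at least 99.8% of the TPM of subunit d in each library, since ATP6V0D2 had 10 and 9 reads in H1299 and none elsewhere.

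Among V1 genes with at least 50 reads on average and reads in every library, ATP6V1C1, ATP6V1G1 and ATP6V1B2 had the largest mean differences over the 3 lines. ATP6V1C1 (Gene ID 528; chromosome 8, 103021083 to 103073051) codes for subunit C, which holds V1 to V0 and leaves when the pump is taken apart. Reads numbered 2891, 11362 and 3839 in the controls and 1956, 8517 and 2637 after si-MALAT1, lower in each line. Log2 fold changes were -0.48 (-0.57 to -0.40), -0.28 (-0.33 to -0.24) and -0.69 (-0.76 to -0.61), with a mean of -0.48 ± 0.20 (SD, n = 3 lines). edgeR's adjusted p was 0.157, between the 0.0113 of DESeq2 and the 1 of edgeR with no pairing, which bound the alternatives.

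ATP6V1G1 (Gene ID 9550; chromosome 9, 114587769 to 114598879) codes for subunit G of the peripheral stalks. The controls held 4056, 5715 and 2810 of its reads and the si-MALAT1 libraries 5950, 6590 and 4190. Each si-MALAT1 library lay above its control. The log2 difference was 0.63 (0.58 to 0.69) in H460, 0.34 (0.29 to 0.39) in H1299 and 0.43 (0.36 to 0.50) in A549, with a mean of 0.47 ± 0.15 (SD, n = 3 lines). For this gene edgeR's adjusted p was 0.165, with a range from 0.00819 (DESeq2) to 1 (no pairing). It held 98.8 to 99.7% of the TPM of subunit G, with the neuronal isoform ATP6V1G2 at 15 to 33 reads.

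ATP6V1B2 (Gene ID 526; chromosome 8, 20197375 to 20226852), a subunit of the catalytic ring, had 4226, 2956 and 2657 reads in the controls and 4380, 3957 and 4143 after si-MALAT1. Its log2 fold changes were 0.13 (0.07 to 0.19), 0.55 (0.48 to 0.62) and 0.50 (0.43 to 0.57), and edgeR's adjusted p was 0.258. Its renal isoform ATP6V1B1 was at most 7.87% of subunit B, with 83 to 152 reads in the A549 and H460 libraries and none in H1299. ATP6V1A, the catalytic subunit itself, had nearly equal log2 fold changes of 0.21, 0.25 and 0.21 (SD 0.02, n = 3 lines), with an adjusted p of 0.429 in edgeR.

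The remaining V1 genes differed between lines. ATP6V1D, ATP6V1E1 and ATP6V1H (the rotor, a stalk and the regulatory subunit) were lower in A549, with -0.22, -0.37 and -0.41, and lay between -0.05 and 0.20 in H460 and H1299. ATP6V1F had 0.45, -0.20 and 0.19. ATP6V1E2 had 0.66 (0.44 to 0.88) in H460 and -0.07 and 0.07 elsewhere, and it held up to 18.8% of subunit E in A549 and 2.67 to 7.66% in the other lines. ATP6V1C2 passed 1.5-fold in H460 and A549 at 19 to 79 reads only, and it overlaps PDIA6 on the opposite strand. ATP6V1FNB had 13 to 39 reads, and its intervals included 0 in each line.

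**Figure D3:**
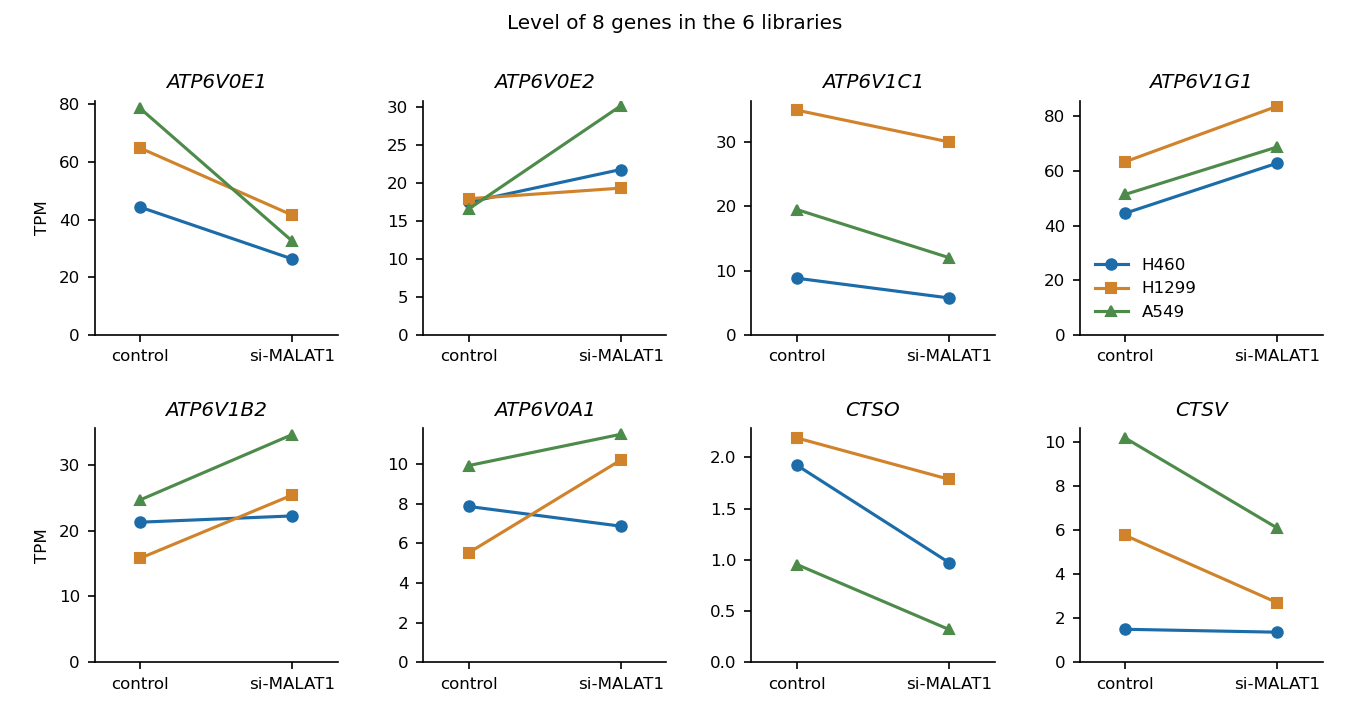
Levels of 8 genes in the 6 libraries. The y axis is TPM from 0, and a line joins the control and si-MALAT1 library of 1 cell line. ATP6V0E1, ATP6V1C1 and CTSO go down and ATP6V1G1 and ATP6V1B2 go up in each line, while ATP6V0A1 goes up most in H1299 and CTSV down most in H1299 and A549.

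Summed over the 22 V0 and V1 genes, the TPM of the pump was close between the conditions. It was 413, 648 and 535 in the controls and 411, 684 and 499 after si-MALAT1. The V0 sum was lower in each line, at 0.880, 0.933 and 0.817 of the control, and the V1 sum was at 1.10, 1.13 and 1.01 of the control. The V0 sum was 197, 238 and 219 TPM in the controls and 173, 222 and 179 after si-MALAT1. ATP6V0E1 made up 44.3, 64.8 and 78.6 TPM of it in the controls and 26.3, 41.5 and 32.5 after si-MALAT1. In H1299 and A549 the fall of ATP6V0E1 alone was larger than that of the V0 sum. TCIRG1, at 18.8 to 38.9 TPM, is not in these sums. These sums, and those of the cathepsins below, weigh each gene by its level and were not tested. On log2(TPM + 1) the median change over all 17834 genes was -0.07, 0.04 and 0.00, so in H460 most genes were lower by TPM.

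Among the cathepsins, CTSL (Gene ID 1514; chromosome 9, 87726119 to 87731469), a cysteine endopeptidase, was the most abundant in H460 and A549. Its reads were 92370, 5290 and 14611 in the controls and 70245, 4324 and 10271 after si-MALAT1. Each si-MALAT1 library was lower, with log2 values of -0.31 (-0.33 to -0.30), -0.16 (-0.22 to -0.10) and -0.65 (-0.69 to -0.62), and edgeR's adjusted p was 0.261. The 15 cathepsins together summed to 2098, 373 and 709 TPM in the controls, of which CTSL made up 48.7, 15.7 and 37.5%. After si-MALAT1 the sums were 1637, 407 and 579 TPM and the CTSL shares 45.6, 13.4 and 29.2%.

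CTSO (Gene ID 1519; chromosome 4, 155924118 to 155953866), a little studied cysteine protease, had few reads, with 326, 367 and 97 in the controls and 172, 262 and 37 after si-MALAT1. The differences on the log2 scale were -0.84 (-1.12 to -0.57), -0.35 (-0.59 to -0.12) and -1.51 (-2.12 to -0.98), and their mean of -0.90 ± 0.58 (SD, n = 3 lines) was the lowest of the 34 genes with at least 50 reads on average. edgeR's adjusted p was 0.245. The level was 0.321 to 2.19 TPM.

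CTSV (Gene ID 1515; chromosome 9, 97029677 to 97039643), the close relative of CTSL known from thymus and skin, had 382, 1449 and 1552 reads in the controls and 362, 595 and 1036 after si-MALAT1. Its log2 fold changes were 0.00 (-0.21 to 0.22), -1.15 (-1.29 to -1.01) and -0.73 (-0.84 to -0.61). The H460 interval did not overlap those of the other lines. edgeR's adjusted p was 0.261, and leaving out H460, H1299 or A549 gave 0.0632, 0.488 or 0.937.

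The other abundant proteases did not follow CTSL in all lines. CTSC, the dipeptidyl peptidase that activates serine proteases of leukocytes, had log2 differences of -0.17 (-0.19 to -0.15) in H460, 0.19 (0.14 to 0.25) in H1299 and 0.31 (0.24 to 0.37) in A549. CTSD, the aspartic cathepsin, had -0.34 (-0.37 to -0.31), 0.24 (0.19 to 0.30) and -0.05 (-0.10 to -0.01). CTSZ, a carboxypeptidase, had -0.05, -0.33 and -0.50, and CTSB, an endo- and exopeptidase, had -0.04, 0.03 and -0.31. CTSA, the serine carboxypeptidase that shields beta-galactosidase and neuraminidase, had 0.03, 0.47 and 0.31, and it shares exonic sequence with NEURL2, PLTP and SPATA25 on the opposite strand. CTSF had 0.16, 0.27 and 0.13, CTSH 0.46, -0.10 and 0.39, and CTSK, the collagenase of osteoclasts, 0.32, 0.19 and -0.60. For CTSH in H460 the scales differ, since its TPM went from 1.24 to 1.18.

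LAMP2 (Gene ID 3920; chromosome X, 120426148 to 120469349), which also serves autophagy, had 12822, 8257 and 6272 reads in the controls and 13561, 9518 and 8899 after si-MALAT1. Its log2 differences were 0.16 (0.13 to 0.20), 0.34 (0.29 to 0.38) and 0.36 (0.31 to 0.41), higher in each line, with an adjusted p of 0.334 in edgeR. LAMP1 had -0.03, 0.07 and 0.13. LAMP3, a marker of mature dendritic cells, had 63, 271 and 15 reads in the controls and 41, 215 and 28 after si-MALAT1, and each of its 3 intervals included 0. Its spread between lines, -0.53 to 0.73, was the widest of the named genes and rests on those few reads.

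As over all genes, more of these genes were called in the 3 contrasts between lines than in the si-MALAT1 test. In contrasts between lines from the same edgeR fit, with 2 libraries per line, 26 of the 38 genes differed between some pair of lines at an adjusted p below 0.05 (68.4%), beside 69.4% of all genes. In all 3 contrasts 9 genes differed (23.7%), beside 15.2% of all genes. H1299 was higher than H460 for 8 genes (26% of all genes were called) and lower for 12 (26.6%). A549 was higher than H460 for 8 (18.9%) and lower for 9 (19.3%), and it was higher than H1299 for 12 (24.4%) and lower for 9 (24.5%). Of the 17 calls between A549 and H460, 10 were left without the H460 control, 8 without the A549 control and 9 without the A549 si-MALAT1 library. Of the 21 between A549 and H1299, the count was 13 without the A549 control and 11 without the A549 si-MALAT1 library. Both libraries of a line come from that line, so these p-values measure the spread between cultures only.

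H460 stood apart by high CTSL, CTSC and CTSZ, while by TPM CTSB was highest in A549 and CTSA and CTSF were highest in H1299. CTSL was at 1022 and 747 TPM there, beside 58.6 and 54.6 in H1299 and 266 and 169 in A549, and the log2 difference from H460 was -4.28 in H1299 (edgeR adjusted p = 2.54e-05) and -2.32 in A549 (adjusted p = 0.000252). CTSC was at 538 and 437 TPM in H460 and at 44.5 to 61.1 TPM in the other lines, with log2 differences of -3.39 and -3.44 (edgeR adjusted p = 4.69e-05 and 7.6e-05). CTSZ, at 246 and 216 TPM in H460, had log2 differences of -2.94 in H1299 and -2.08 in A549 (edgeR adjusted p = 6.19e-05 and 0.00032). CTSD was at 157 and 113 TPM in H460, 110 and 105 in A549, and 43.3 and 53.7 in H1299, and H1299 was lower than both (edgeR adjusted p = 0.000476 against H460 and 0.00243 against A549).

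CTSH, CTSV and CTSS were lower in H460 than in A549. CTSH was lowest in H460, at 1.24 and 1.18 TPM, and higher on the log2 scale by 1.75 in H1299 and 3.13 in A549 (edgeR adjusted p = 0.00115 and 0.000243). CTSV was higher than in H460 by 1.11 and 2.14 (edgeR adjusted p = 0.0168 and 0.00222), and the first of these was 0.0668 without the H460 control and 0.0891 without the H1299 control. CTSS, a protease of antigen-presenting cells, had 943 and 833 reads in A549, 195 and 112 in H460 and none in H1299. Against 3 reads in an H1299 library, the lowest scaled CTSS count was at least 381-fold higher in A549 and at least 42.1-fold higher in H460. ATP6V1B1 was at least 38.0-fold and 38.3-fold higher in A549 and H460 by the same measure, and ATP6V0A4, the renal isoform a4, at least 2.29-fold and 4.13-fold at 5 to 18 reads. Leukocyte markers were read beside CTSS. PTPRC and CD3E were listed at 0 in every library, and of 6 markers only CD68, itself a lysosomal membrane protein, was over 1 TPM throughout (9.40 to 47.3 TPM). CD14, a monocyte marker, was present and near absent in the same lines as CTSS, at 7.41 and 9.25 TPM in H460, 4.53 and 9.06 in A549, and 0.0266 and 0.0241 in H1299, and its part in the CTSS level was not tested. The summed level of the 6 was 19.2 to 36.2 TPM in the controls and 18.7 to 47.5 TPM after si-MALAT1.

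**Figure D4:**
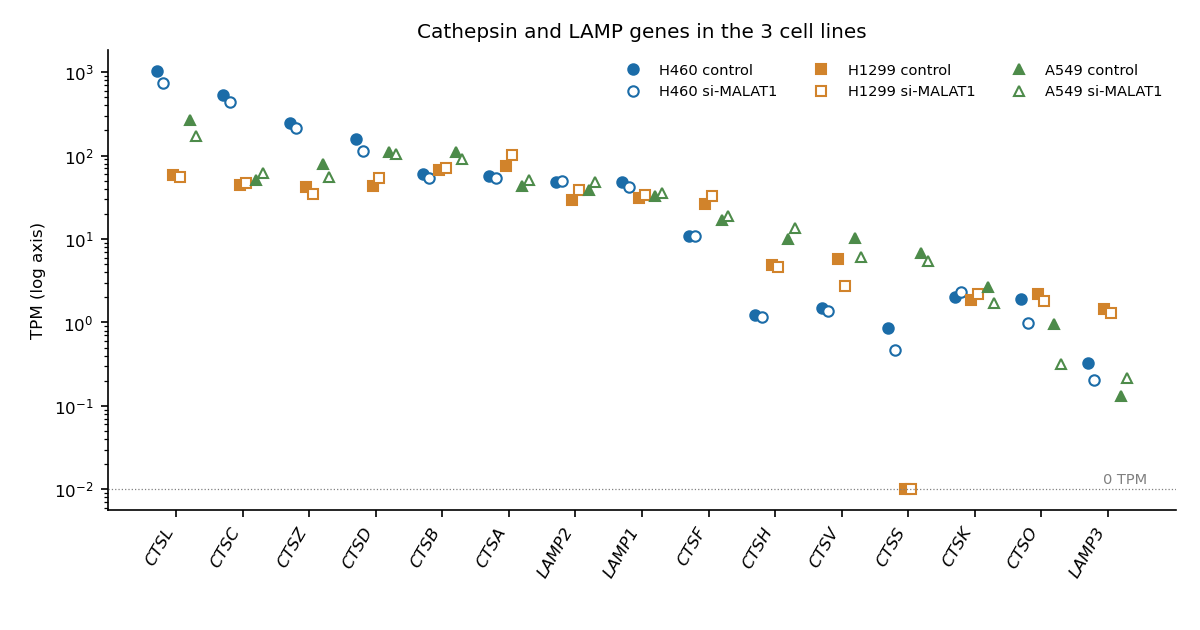
Cathepsin and LAMP genes in the 3 cell lines. The y axis is TPM on a log axis, filled symbols are controls and open symbols si-MALAT1, and libraries without a read are drawn on the dotted line. CTSL, CTSC and CTSZ are highest in H460, CTSH and CTSS are highest in A549, and CTSS is listed at 0 in H1299.

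H1299 was highest for several pump genes. ATP6V1C1 was at 35.0 and 30.0 TPM in H1299, 19.5 and 12.01 in A549 and 8.80 and 5.73 in H460, and the log2 difference of H1299 from H460 was 1.84 (edgeR adjusted p = 0.00024). ATP6V1H, ATP6V1D and ATP6V1E1 were also higher in H1299 than in H460, by 1.59, 1.32 and 0.99 on the log2 scale (edgeR adjusted p = 0.000611, 0.000808 and 0.00268). ATP6AP1 and ATP6AP2 were lower in H1299 than in H460, with log2 differences of -1.62 and -1.15 (edgeR adjusted p = 0.00182 and 0.000813). ATP6V0E1, ATP6V0E2, ATP6V1G1 and ATP6V1A, by contrast, were not called in any of the 3 contrasts, with log2 differences between -0.42 and 0.29.

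The promoters of these genes were read from a RefSeq set (250 bases before to 50 after the start, GRCh38.p14), which held 28 of the 43. ATP6V0E1 was not in the set, so its promoter was not read. CACGTG, a palindrome and so the same on both strands, lay in the promoter of 8 of the 23 with reads throughout (34.8%), beside 12.4% of 11960 genes with reads and 7.26% of all 35116 promoters. The longer form TCACGTGA, which contains it, lay in 4 of the 23 (17.4%), beside 2.14% of genes and 0.98% of promoters. ATP6V0B, ATP6V0E2, CTSD and CTSF carried CACGTG without the longer form. Of these, ATP6V0B was lower in each line, ATP6V0E2 and CTSF were higher in each, and CTSD was mixed. Windows from the 4 genes with the longer form and from ATP6V0E2 are given as examples from the pump, a protease and the membrane. The palindrome is in capitals and positions are counted from 0 at the start site.
ATP6V1G1, chr9:114587696-114587731, plus strand, at -60 to -51: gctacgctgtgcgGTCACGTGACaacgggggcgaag
ATP6V0D1, chr16:67481196-67481231, minus strand, at -60 to -53: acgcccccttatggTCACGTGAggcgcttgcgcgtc
CTSA, chr20:45891295-45891330, plus strand, at -26 to -19: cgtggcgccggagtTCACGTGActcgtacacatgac
LAMP1, chr13:113297196-113297231, plus strand, at -29 to -22: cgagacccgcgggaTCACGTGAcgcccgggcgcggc
ATP6V0E2, chr7:149872881-149872916, plus strand, at -72 to -67: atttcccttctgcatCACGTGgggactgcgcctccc

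Genes with the longer form did not move alike. ATP6V1G1 was higher in each line, ATP6V0D1 and CTSA were higher by 0.03 to 0.47 on the log2 scale, and LAMP1 lay between -0.03 and 0.13. A match describes the letters of this window and is not a binding site. Of the factors themselves, TFE3 was lower in each line, with log2 fold changes of -0.53, -0.22 and -0.31. edgeR gave TFE3 an unadjusted p of 0.0189 and an adjusted p of 0.238. TFEB had -0.17, -0.80 and 0.35 and MITF 0.56, 0.30 and -0.18, with edgeR adjusted p of 0.777 and 0.673. TFEC was listed at 0 in H460 and had 1.55 TPM in the A549 control.

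The 3′ UTR words TGAATCA and ATGAATC were searched because earlier work on these same libraries had found them among genes that were lower after si-MALAT1, so their match to lower genes here supports nothing on its own. On the sense strand of GENCODE v44 canonical transcripts, either word lay in 4 of the 35 genes (11.4%), beside 17.7% of 12566 genes. The 4 were ATP6V1C1, CTSO, CTSV and LAMP3, whose mean log2 fold changes were -0.48, -0.90, -0.63 and -0.00. ATP6V0E1, the gene that was lower by 1.5-fold in all lines, carries neither word. Over the 12566 genes the median 3′ UTR length was 3235.5 bases with either word and 1057 without. LAMP3, which carries TGAATCA, had log2 fold changes of -0.53, -0.20 and 0.73, and its site is not printed. As examples only, the sites of CTSO and CTSV are given with the word in capitals, where the CTSO site joins both words.
CTSO, chr4:155924655-155924662, minus strand: accatattaaATGAATCAatacaagaaa
CTSV, chr9:97032845-97032851, minus strand: ataaaccagtTGAATCAttgaggatcc

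Further genes of the pathway were counted in 7 lists, and edgeR's adjusted p called 0 genes in each. Over all genes tested, 7.38% were higher and 7.59% lower at an unadjusted p below 0.05, and DESeq2 called 2.94% higher and 3.02% lower. The DESeq2 shares count all tested genes, also those without an adjusted p from DESeq2. Of 14 tested assembly factors and TCIRG1, 5 were higher (35.7%) and 4 lower (28.6%) at an unadjusted p below 0.05, and DESeq2 called VMA21, an assembly factor, and RNASEK, a pump-associated protein, lower (14.3%). Of 37 other lysosomal hydrolases, 6 were higher (16.2%) and 4 lower (10.8%) at an unadjusted p below 0.05, and DESeq2 called 5 higher (13.5%) and 2 lower (5.41%). Past 1.5-fold in all 3 lines, as 1.19% of all genes were upwards and 1.28% downwards, were SMPD1, the acid sphingomyelinase, at 0.63, 0.82 and 0.92, and SCPEP1, a serine carboxypeptidase, at -0.79, -1.26 and -1.06. edgeR's adjusted p was 0.0915 for SMPD1 and 0.0734 for SCPEP1. Leaving out H460, H1299 or A549 gave edgeR adjusted p of 0.0309, 0.131 or 0.604 for SCPEP1 and 0.0903, 0.171 or 0.713 for SMPD1. SCPEP1 thus passed only without H460, where edgeR called 163 genes in all.

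Of 28 other lysosomal membrane proteins, 5 were higher (17.9%, beside 7.38% of all genes) and 0 lower (beside 7.59%) at an unadjusted p below 0.05. DESeq2 called LAPTM4A higher (3.57%, beside 2.94% of all tested genes, with or without an adjusted p). Of 19 genes for sorting of hydrolases, 2 were higher (10.5%) and 1 lower (5.26%), and DESeq2 called SORT1, AP1S1 and AP3B1, 2 of them higher. Of 5 tested cathepsin inhibitors, 1 was higher and 0 lower, and DESeq2 called 0. Of 8 regulators of lysosomal genes, 2 were higher (25%) and 1 lower (12.5%), and DESeq2 called FNIP1 higher. Of 17 genes of mTORC1 on the lysosome, 0 were higher and 0 lower, and DESeq2 called 0.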

How the data were processed

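Total RNA depleted of ribosomal RNA was sequenced as paired-end, stranded libraries of H460, H1299 and A549, 1 control and 1 si-MALAT1 library per line. Per the methods and labels, reads were trimmed, aligned to GRCh38 with HISAT2 2.1.0 and assembled and counted with StringTie (1.3.4b in the submitters' processing notes, which also name hg19; another version in the methods), and the authors deposited whole read counts and TPM per gene; how multi-mapping reads of close copies (CTSL and CTSV, ATP6V0C) were assigned is not given in the sources used here. The table also holds 18 columns of other samples and FPKM columns, which were not used.

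Counts were tested as deposited with edgeR 4.0.16 (R 4.3.3; quasi-likelihood test, TMM, filterByExpr, 19122 genes, cell line as a block, adjusted p below 0.05 by Benjamini-Hochberg), and DESeq2 1.42.0 on the same genes was the alternative. Both libraries of a pair come from the same line by label, and their deviations from the group means correlated at 0.930, 0.943 and 0.934 over 14464 genes. Fold changes within a line used RLE size factors and a pseudocount of 1 on genes with a read in each library, and carry no test. Intervals are exact Clopper-Pearson intervals. Comparisons between genes used TPM, which is per length. The fit was tested on simulated data first.

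The members and lists were chosen with earlier results of these data known. Values are given for genes past 1.5-fold in 3 lines, those with the 5 highest and 5 lowest mean changes among genes with at least 50 reads on average, the 3 with the widest range between lines, the 5 with the highest TPM, the 5 that differ most between lines, and all isoform genes, and the rest are summarised.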

Additional observations from a re-analysis of the deposited data

How the results depend on the processing

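With 3 pairs and 2 residual degrees of freedom, counts of calls depend on the tool. Among the V-ATPase, cathepsin and LAMP genes DESeq2 called 3 where edgeR called 0. Over all genes edgeR called 1 and DESeq2 1140, and edgeR called 0 without the low-count filter and 0 without the replicate block. Leaving out 1 cell line gave 0 to 163, the 163 without H460. MALAT1 itself was called in the paired edgeR test, while its adjusted p was 0.171 without the filter, 0.125 without H1299, 0.275 without A549 and 1 without the block. For the si-MALAT1 test, leaving out the block changed no call of a V-ATPase, cathepsin or LAMP gene. For the contrasts between lines the cell line stayed in the model and the treatment term was left out instead. The number called then moved from 20 to 19 (H1299 against H460), from 17 to 12 (A549 against H460) and from 21 to 17 (A549 against H1299).

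Among the 38 tested genes, 10 had a paired log2 change whose sign turned, and edgeR called none of them. With 1 line left out, CTSC ran from -0.0033 (without A549) to 0.24, CTSD from -0.20 to 0.082 (without H460), and LAMP3 from -0.37 to 0.15 (without H460, and 0.057 without H1299). ATP6AP1 ran from -0.0030 (without H1299) to 0.42, ATP6V0C from -0.40 to 0.0024 (without H460), ATP6V1E2 from -0.0076 (without H460) to 0.35, and ATP6V1F from -0.019 (without H460) to 0.32. ATP6V1H ran from -0.18 to 0.061, CTSK from -0.21 to 0.24 and ATP6V1D from -0.095 to 0.11, each highest without A549. Without the block CTSC was -0.12 and ATP6V1D 0.00096, and ATP6V1D was 0.0093 with DESeq2 and 0.0093 with RLE size factors, beside -0.0046 in the main test. On log2(TPM + 1), which understates changes of low genes, 0 genes were higher by 1.5-fold in H460 and 1 in A549. In H460 this also left out ATP6V1G1, which is not a low gene at 44.5 and 62.9 TPM. Over all 17834 genes the median H460 change was -0.07 on this scale, beside 0.02 by scaled reads. With a threshold of 1.5 on the log2 scale the count was 0 in each line and direction, and 0 for all 3 lines lower, except for 1 gene lower in A549, CTSO. Calls between lines ran from 8 to 19 (A549 against H460) and from 11 to 22 (A549 against H1299) when a library was left out. By reads instead of TPM, the mean share of TCIRG1 in subunit a was 56.0% and that of ATP6V0E1 in subunit e 54.2%. The cause of these differences was not tested. For these counts, these shares and the paired changes of the 38 genes, the other alternatives kept the count within 1.5 times or the direction and side of the threshold, apart from the DESeq2 calls of ATP6V0E1, ATP6V1C1 and ATP6V1G1.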
